A study of Mus musculus with 6 samples.

Results

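The cells described here are fibroblasts of mouse pancreatic tumours picked by a count of genes that marks the inflammatory side of the fibroblast range. Barcodes were kept as cells from 500 UMIs (unique molecular identifiers, which count RNA molecules) and 300 genes upwards, with no more than 20% of UMIs mitochondrial. A kept cell was taken as a fibroblast when at least 3 of Col1a1, Col1a2, Col3a1, Dcn, Lum and Pdgfra had 2 UMIs or more, with under 5 UMIs of Ptprc and Tyrobp together, under 3 of Epcam, under 2 of Upk3b and under 3 of Crabp1. Such a cell was a member when more of 8 inflammatory genes (Clec3b, Dpt, Pi16, Ly6c1, Col14a1, Svep1, C3 and Cxcl12) than of 8 myofibroblastic genes (Acta2, Tagln, Myl9, Tpm2, Cthrc1, Postn, Thbs2 and Col12a1) had at least 1 UMI. This rule gave 941 cells of 54911 kept cells and of 4640 Crabp1-low fibroblasts. Of the other Crabp1-low fibroblasts, 3117 had more myofibroblastic genes and are called myofibroblastic here, and 582 had equal numbers.

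All 6 mice carried KrasLSL.G12D/+, P53LSL.R172H/+ and Pdx1-Cre, in which Cre acts in the pancreatic epithelial lineage. The lineage of the cells described here was not traced. The 3 treated mice received IPI-926, which blocks Smoothened, the membrane protein that passes on Hedgehog signals, at 40 mg/kg by daily gavage for 2 days, and the 3 controls received the vehicle, HPBCD. Tumours were taken 2 hours after the final dose and dissociated with enzymes, red cells were lysed, and each tumour gave 1 library of 10x Genomics 3' counts. The study asked which cells respond to Smoothened inhibition, with Hedgehog, WNT and VEGF signalling named as its interest. In the lists of values below, the order is always replicate 1, 2 and 3.

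Fibroblasts of pancreatic tumours are commonly divided into myofibroblastic cells, which are contractile, lie close to the cancer cells and are rich in matrix, and inflammatory cells, which secrete cytokines and complement proteins. A Pi16- and Dpp4-expressing fibroblast of the outer connective tissue of many organs shares Clec3b, Dpt and Ly6c1 with the inflammatory type. Hedgehog ligands made by the cancer epithelium are read by the surrounding fibroblasts: a ligand bound to Patched releases Smoothened, which turns on the Gli transcription factors and targets such as Gli1 and Ptch1. Myofibroblastic cells are usually described as the stronger responders of the pair.

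The members numbered 210, 281 and 56 cells in the vehicle libraries and 84, 37 and 273 in the IPI-926 libraries. Their summed UMIs were 2143629, 2672165 and 426998 with vehicle and 1158440, 782812 and 953145 with IPI-926. The median member held 10084.5, 6023 and 6875 UMIs with vehicle and 13525.5, 20354 and 1510 with IPI-926, so the members of IPI-926 replicate 3 were the shallowest. That library stood apart in its fibroblasts too: 2647 of its cells passed the fibroblast gate with 3 or more UMIs of Crabp1, against 1, 0 and 2 in the vehicle libraries and 0 and 0 in the other IPI-926 libraries, and 128 of its 273 members still carried a Crabp1 UMI. At most 59 cell barcodes were shared by any pair of libraries, and no barcode was shared among the members. Results that rest on IPI-926 replicate 3 are therefore given with and without it. Each library is 1 mouse, and n is 3 in each group throughout.

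The 6 markers of the label were carried by these cells, but unevenly. Clec3b, a secreted plasminogen-binding lectin, stood at 173, 258 and 78.98 CPM in the vehicle members and 799, 389 and 377 CPM in the IPI-926 members, against 2.201, 0.474 and 1.08 and 3.67, 7.097 and 21.6 CPM in the myofibroblastic cells of the same libraries. CPM is the usual depth-normalised count, here of the summed cells of a library after scaling by trimmed means, unless said otherwise. Dpt, the matrix protein dermatopontin, stood at 498, 976 and 35.1 CPM with vehicle and 1349, 515 and 407 CPM with IPI-926, and vehicle replicate 3 was the low library. Ly6c1, a surface protein of progenitor-type fibroblasts and of endothelial cells, was at 167, 191 and 70.2 CPM and 515, 216 and 882 CPM. Col14a1, a collagen of loose connective tissue, was at 146, 823 and 121 CPM and 791, 518 and 208 CPM. Svep1, a large adhesion protein, was at 189, 817 and 132 CPM and 478, 373 and 125 CPM. Pi16, a secreted peptidase inhibitor, was at 215, 409.9 and 480.5 CPM and 816, 209 and 226 CPM. Unlike Clec3b, some markers overlapped between the cell sets across libraries. In myofibroblastic cells of vehicle replicate 2 Col14a1, Svep1 and Dpt were at 222, 197 and 58.2 CPM (unscaled). In the members of vehicle replicate 3 they were at 129, 141 and 37.5 CPM (unscaled). Pi16 was at 253 CPM in myofibroblastic cells of vehicle replicate 3 and 215 CPM in the members of vehicle replicate 1 (unscaled). Within each vehicle library the members were the higher set for these genes. These genes chose the cells, so their levels are a description. A Pi16 UMI was also found in 5.53% to 11.8% of immune cells with no Epcam and almost no collagen UMIs, a Col14a1 UMI in 2.45% to 15.98%, a Ly6c1 UMI in 0.766% to 13.5%, and a Clec3b UMI in 0.140% to 0.857%. The median depth of those immune cells was 2724 to 6859 UMIs.

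**Figure D1:**
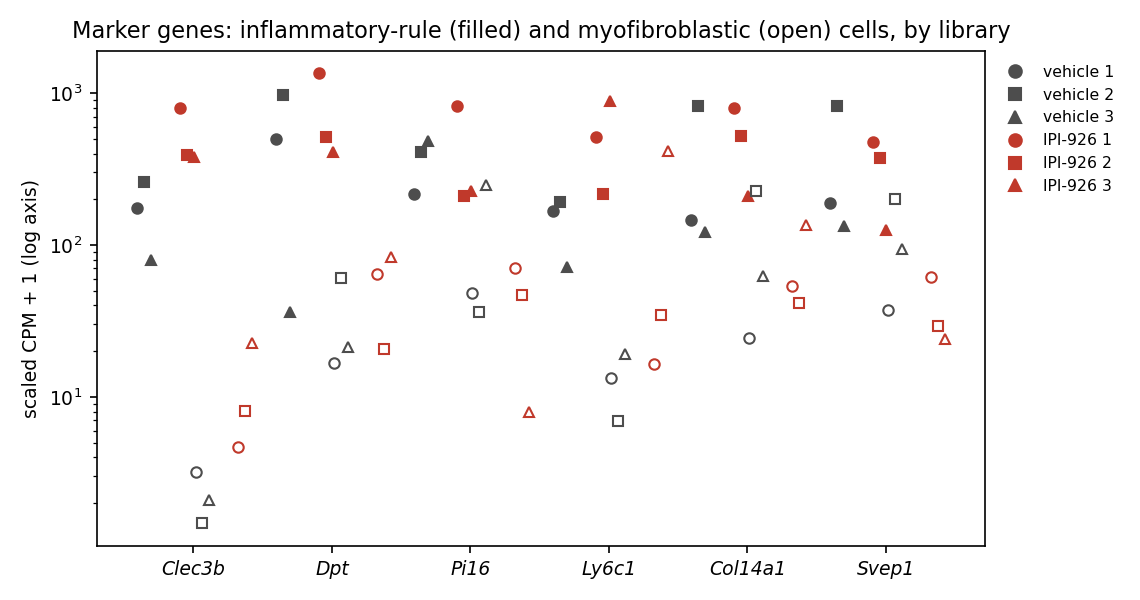
Scaled CPM plus 1 (log axis) of the 6 marker genes in the summed inflammatory-rule cells (filled symbols) and myofibroblastic cells (open symbols) of each library, with 1 symbol per library. Clec3b stands at 78.98 to 799 CPM in the members and at 0.474 to 21.6 CPM in myofibroblastic cells, with no overlap. Dpt, Pi16, Col14a1 and Svep1 overlap between the cell sets across libraries.

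Of the 941 members, 413 had just 1 inflammatory gene more than myofibroblastic genes (84, 98 and 38 with vehicle, 13, 14 and 166 with IPI-926). Just outside the rule lay the 582 tied cells and 650 cells with 1 inflammatory gene fewer. At least 3 of the 6 markers were found in 84, 206 and 18 members of the vehicle libraries and in 74, 24 and 66 of the IPI-926 libraries. A UMI of Ptprc or Tyrobp, which mark immune cells, was found in 11, 70 and 6 vehicle members and 11, 6 and 154 IPI-926 members.

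Clustering of the members alone gave 6 clusters, and the label holds for some of them only. Cluster 1, with 298 cells from all 6 libraries (29, 135 and 25 with vehicle, 70, 16 and 23 with IPI-926), was led by Cilp, Pi16, Lbp, Sfrp1, Sfrp4, Ptx3, Sfrp2 and Col14a1. These are matrix, lipopolysaccharide-binding, WNT-binding and pentraxin genes of connective tissue fibroblasts. Cluster 2 had 239 cells, 235 of them from IPI-926 replicate 3, with a median of 1402 UMIs. It was led by Ccl8, Ccl5, Fcer1g, C1qb and Lyz2 of macrophages, Cdh5, Egfl7 and Cd93 of endothelial cells, and Crabp1. Cluster 3 had 211 cells, 138 of them from vehicle replicate 1, and was led by haemoglobin genes, Lgals7, Serpinb2, Tff1, Nkain4 and Cxcl13. Cluster 4 had 119 cells, 111 of them from vehicle replicate 2, with a median of 1843 UMIs, and was led by Igha, Ccl6, Il1b, Gm26917 and Arg1. Cluster 5, with 43 cells, was led by immunoglobulin genes, Cfd and Car3, and cluster 6, with 31 cells, by the cell division genes Mki67 and Top2a.

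**Figure D2:**
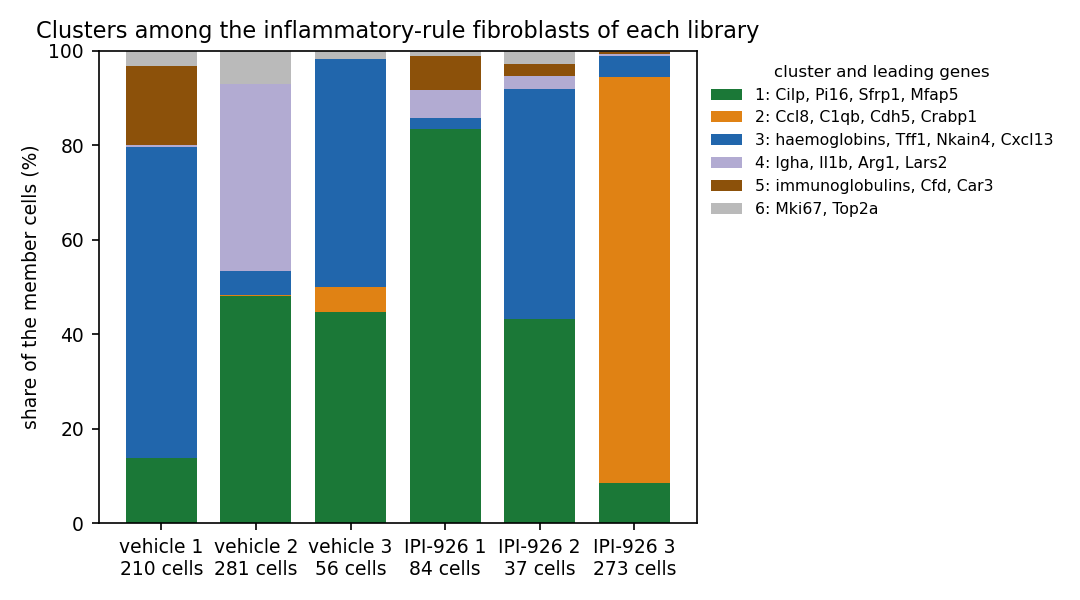
Share (%) of the member cells of each library in each of the 6 clusters, with the number of members under each bar. Cluster 1 (green) is present in every library, cluster 2 (orange) is nearly all from IPI-926 replicate 3 and cluster 3 (blue) mostly from vehicle replicate 1.

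Dpt shows the unevenness between clusters: 87.2% of cluster 1 cells and 11.8% of cluster 3 cells had a UMI, with 1079 and 70.5 CPM (unscaled). The share was 97.7% in cluster 5 (1411 CPM), 71.0% in cluster 6, 60.5% in cluster 4 and 26.8% in cluster 2. Clec3b, Ly6c1 and Svep1 were found in 79.1%, 76.7% and 97.7% of cluster 5 cells, against 74.8%, 73.2% and 88.6% in cluster 1. Pi16 and Col14a1 were found in 30.2% and 55.8% of cluster 5 cells, against 79.9% and 86.6%. The summed level of 12 macrophage markers was 159 CPM in cluster 1 and 4436 CPM in cluster 2, and that of 10 endothelial markers 106 and 1753 CPM. The summed level of 17 ductal markers was 297 CPM in cluster 1 and 2435 CPM in cluster 3, and that of 10 mesothelial markers 222 and 1252 CPM. Mesothelial cells line the organ surface and can make collagen. In cluster 3 the mesothelial genes Wt1 and Nkain4 stood at 259 and 284 CPM and Msln at 57.7 CPM. Lrrn4, Krt8, Krt19 and Rspo1 were also highest in cluster 3. Msln, Upk1b and Muc16 were higher in cluster 2, at 153, 54.7 and 31.4 CPM against 57.7, 32.6 and 15.4 CPM in cluster 3. Wt1 was at 120, 115, 123 and 138 CPM in clusters 1, 4, 5 and 6, so it was not particular to cluster 3. Upk3b was at 24.7 CPM in cluster 3 and 32.8 CPM in cluster 2. The rule holds Upk3b under 2 UMIs in every member, so its level is limited in advance. A Upk3b UMI was found in 26.5% of cluster 3 cells and 0.671% of cluster 1 cells. Because of these clusters the 941 cells are called inflammatory-rule fibroblasts here, and values of cluster 1 alone are given beside the results that turn on them, as a description with no test, since cluster 1 was singled out after its values were seen.

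Against the myofibroblastic cells of the same library, the inflammatory-rule cells were richest in secreted immune and matrix genes outside the rule. The rule divides these cells by their genes, so this too is a description, given as the median over the 6 libraries of the log2 ratio with 5 CPM added. It was 4.04 for Cxcl13, the chemokine that draws B cells, 3.87 for Tnxb, a tenascin of loose connective tissue, and 3.44 for the complement gene C4b. Tnxb stood at 225, 374 and 43.9 CPM with vehicle and 319, 277 and 55.96 CPM with IPI-926, against 15.7, 6.299 and 2.82 and 6.34, 9.59 and 13.96 CPM in myofibroblastic cells. Next came Cilp (3.31), Ly6a (3.23), Ifi27l2a (3.23), Col6a5 (3.07) and Efemp1 (2.95), then Scara5 (2.74) and Ptx3 (2.71), which were lower in the members of vehicle replicate 3. At the other end stood Rgs5 (-4.58), Actg2 (-3.92), Myh11 (-3.17) and Cspg4 (-2.91) of contractile and perivascular cells. Matrix and signalling genes of myofibroblasts followed, with Col11a1 at -3.50, Tnc at -3.23, Inhba at -3.07 and Spp1 at -2.89. Nes stood at -2.58 and the cytokine gene Il11 at -2.55, though Il11 was slightly higher in the members of IPI-926 replicate 2 (0.13).

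No gene was called between IPI-926 and vehicle in these cells. Counts were summed over the members of each library and 8472 genes were tested with edgeR's quasi-likelihood test, a gene being called at an adjusted p under 0.05: 0 were called (0%), and 167 (1.97%) had an unadjusted p under 0.05, 70 higher and 97 lower with IPI-926. In simulated counts with the same dispersion for all genes, edgeR's test called 8% of genes changed by 1 log2 unit and 82% of those changed by 2. DESeq2 called 4 genes and limma-voom 0. The groups did not overlap for 316 genes in which every IPI-926 library was lower (3.73%) and for 265 in which every one was higher (3.13%), together 6.86% of the genes tested. The median log2 fold change was 0.00, and 50.8% of genes had a positive one. Fold changes below are IPI-926 minus vehicle. A fold change of summed counts alone does not separate fewer cells with a transcript from less RNA per cell. Shares of cells with a UMI, which also depend on depth, were counted for some genes and were not tested. With 3 mice a group 1 library can turn the sign of a fold change or of a list's median, so the lowest and highest values with 1 library left out are given beside them. The genes that pass the filter on low counts differ between those fits.

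Gli1, the transcription factor that is itself a Hedgehog target, was not detected in the members of any treated mouse. It had 6, 15 and 7 UMIs in the vehicle members (2.803, 5.99 and 15.4 CPM, 8.05 ± 6.53, SD) and 0, 0 and 0 in the IPI-926 members. The groups did not overlap, but Gli1 was too rare to enter the edgeR test, and the two-sided exact permutation p was 0.1, the smallest that 3 libraries against 3 can give. Over the summed libraries this is 5.34 CPM (unscaled) of 5242792 UMIs against 0 of 2894397, and with the floor of 3 UMIs over the group Gli1 was at least 5.15-fold lower with IPI-926, counting error only. In cluster 1 the counts were 3, 8 and 7 with vehicle and 0, 0 and 0 with IPI-926. Myofibroblastic cells had more Gli1 UMIs, 51, 169 and 39 against 3, 9 and 3, which is 5.34, 11.4 and 8.46 CPM against 0.5003, 1.73 and 0.511 CPM. In the treated members 1 UMI is worth 1.003, 1.36 and 0.999 CPM, so a level like that of the treated myofibroblastic cells lies at or near the limit of detection in the members. Immune cells of the same libraries held 0, 2 and 0 UMIs with vehicle and 0, 1 and 0 with IPI-926.

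Ptch1, the Hedgehog receptor and a feedback target, was found in the members of every library. It stood at 13.5, 14.8 and 41.7 CPM with vehicle and 14.04, 6.78 and 12.99 CPM with IPI-926 (log2 fold change -0.83, SE 0.53), and the groups overlapped. Vehicle replicate 3, with 19 UMIs, was the high library, and without it the fold change was -0.30. In myofibroblastic cells Ptch1 was at 16.3, 16.9 and 25.2 CPM and 9.01, 8.82 and 4.94 CPM, and the groups did not overlap. In cluster 1 it was at 32.6, 14.97 and 73.7 and 11.5, 6.37 and 15.6 CPM, unscaled.

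The targets that pattern mesenchyme differed from one another. Bmp4, a bone morphogenetic protein, stood at 14.01, 13.97 and 35.1 CPM with vehicle and 2.01, 10.8 and 16.99 CPM with IPI-926 (log2 fold change -0.92, SE 0.67), with IPI-926 replicate 3 above vehicle replicates 1 and 2. Foxf1, a forkhead factor of visceral mesenchyme, was at 8.41, 10.8 and 0 CPM and 6.02, 10.8 and 15.99 CPM (log2 fold change 0.47, SE 0.67), and its relative Foxf2 had 17 and 4 UMIs in all. With 1 library left out the fold change of Bmp4 lay between -1.62 without IPI-926 replicate 3 and -0.42 without IPI-926 replicate 1. Osr1, a factor of intermediate and visceral mesoderm, was at 202, 73.04 and 195 CPM and 187, 291 and 29.98 CPM (log2 fold change 0.12, SE 0.78, -0.52 to 0.63 with 1 library left out), and IPI-926 replicate 3 was its low library. Hhip and Foxd1 had 1 UMI each with vehicle and 0 with IPI-926, and Foxl1 had 0 in both groups. Of the 12 Hedgehog targets 5 could be tested, 3 had a positive fold change, and their median was 0.12 against 0.00 for all genes tested. The filter on low counts left out Gli1, Foxf2 and Wif1 among others, so the median does not cover them. Over the summed libraries these 3 were at 5.34, 3.24 and 12.6 CPM with vehicle and 0, 1.38 and 10.02 CPM with IPI-926 (unscaled). With 1 library left out the median lay between -1.15 without vehicle replicate 1 and 0.19 without vehicle replicate 3, so its sign rests on single libraries.

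**Figure D3:**
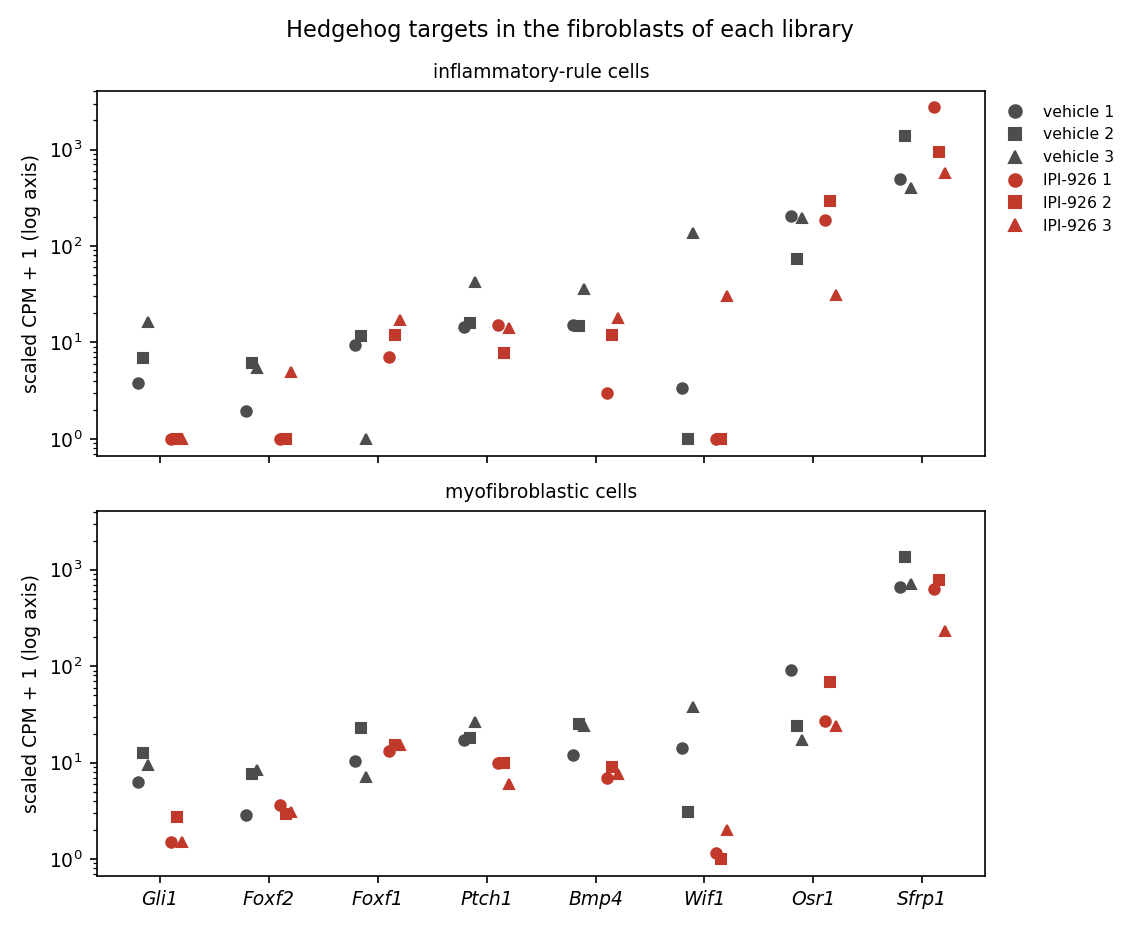
Scaled CPM plus 1 (log axis) of 8 Hedgehog targets in the inflammatory-rule cells (top) and myofibroblastic cells (bottom), 1 symbol per library, vehicle in grey and IPI-926 in red. In the members Gli1 is at 0 in the 3 treated libraries, while Ptch1, Foxf1, Osr1 and Sfrp1 overlap between the groups.

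Wif1 and Sfrp1, which are both WNT antagonists and Hedgehog-linked genes, had different patterns. Wif1, which binds WNT ligands, was carried mostly by replicate 3 of each group: 2.34, 0 and 134 CPM with vehicle and 0, 0 and 28.98 CPM with IPI-926. In myofibroblastic cells it had 325 UMIs with vehicle and 7 with IPI-926, against 66 and 29 in the members. Over the summed libraries this was 11.1 and 0.408 CPM in myofibroblastic cells and 12.6 and 10.02 CPM in the members (unscaled). Sfrp1, a secreted frizzled-like protein, was at 493, 1370.1 and 401 CPM with vehicle and 2753, 949 and 569 CPM with IPI-926 (log2 fold change 0.91, SE 0.71), highest in IPI-926 replicate 1 and overlapping between groups. Without that library the fold change of Sfrp1 was 0.00. In myofibroblastic cells Sfrp1 was at 662, 1364 and 716 CPM and 628, 782 and 229 CPM. The difference of response of Sfrp1 between the cell sets was 1.65 on the log2 scale (SE 0.48, limma adjusted p = 0.995), which did not pass the test.

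Genes that carry the Hedgehog signal mostly overlapped between groups. Cdon, a coreceptor for the ligand, was the exception, at 76.6, 68.2 and 70.2 CPM with vehicle and 49.2, 50.2 and 23.98 CPM with IPI-926 (log2 fold change -0.81, SE 0.31, edgeR adjusted p = 0.99998), though its groups overlapped in cluster 1. Its vehicle values were close together, and without IPI-926 replicate 3, the lowest library, the fold change was -0.52. Smo, which encodes Smoothened, was at 39.7, 30.3 and 61.4 CPM and 27.1, 36.6 and 17.99 CPM, and the coreceptors Gas1 and Boc had fold changes of 0.26 and 0.11 with SE 0.44 and 0.53 (-0.28 to 1.10 for Boc with 1 library left out). Of the 19 genes of this list 9 were tested, 4 with a positive fold change and none called, and the median of -0.11 lay between -0.29 without IPI-926 replicate 1 and 0.08 without vehicle replicate 1.

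Among WNT ligands Wnt5a, a ligand of the pathway branch that does not use beta-catenin, separated the groups. It stood at 43.9, 60.3 and 68.01 CPM with vehicle (57.4 ± 12.3, SD) and 24.1, 32.5 and 31.98 CPM with IPI-926 (29.5 ± 4.73, SD). The log2 fold change was -0.94 with an SE of 0.27, and the adjusted p in edgeR's test was 0.99998. In immune cells of the same libraries Wnt5a was at 0.117 to 2.38 CPM (unscaled). Myofibroblastic cells held it at 73.3, 71.8 and 72.9 CPM and 80.4, 64.8 and 38.1 CPM, overlapping between groups, and the difference of response was -0.60 (SE 0.36, limma adjusted p = 0.995). When cells were chosen by the 6 markers instead of all 8 inflammatory genes, the fold change of Wnt5a was -0.33, and in cluster 1 alone its groups overlapped.

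The other WNT genes that could be tested overlapped between groups. Wnt4 was the most abundant ligand, at 422, 156 and 263 CPM with vehicle and 340.1, 363 and 66.95 CPM with IPI-926 (log2 fold change -0.13, SE 0.65, -0.46 to 0.33 with 1 library left out). The fold changes of Wnt2 and of the R-spondins Rspo1 and Rspo3, which strengthen WNT signals, were 0.92, -0.81 and -1.22, with SE 0.94, 0.54 and 0.68. Of 16 ligands and R-spondins 5 were tested and 1, Wnt2, had a positive fold change, which turned negative without IPI-926 replicate 1 (-0.53 to 1.49 with 1 library left out). Of the WNT antagonists 6 were tested and 5 had a positive fold change, with a median of 0.67 that lay between -0.06 without vehicle replicate 2 and 0.97 without IPI-926 replicate 2. Sfrp2 was at 22.9, 212 and 17.6 CPM and 603, 655 and 52.96 CPM (log2 fold change 2.33, SE 1.22), with IPI-926 replicate 3 below vehicle replicate 2, and Sfrp4 at 55.6, 53.1 and 4.39 CPM and 259.8, 136 and 9.99 CPM (1.73, SE 1.09). Axin2, a target of beta-catenin, had a fold change of 0.64 (SE 0.60). Lef1, another such target, was too rare for the test, at 1.401, 0 and 8.78 CPM and 2.01, 0 and 0.999 CPM. Against 50.8% of all genes with a positive fold change, 4 of 9 WNT targets had one, with a median between -0.29 and 0.22 with 1 library left out.

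Of 17 angiogenic factors tested 8 had a positive fold change, with a median of -0.01 that lay between -0.18 without IPI-926 replicate 3 and 0.25 without vehicle replicate 3. Vegfa, the main vessel growth factor, stood at 67.7, 95.8 and 21.9 CPM with vehicle and 71.2, 35.2 and 55.96 CPM with IPI-926 (log2 fold change -0.24, SE 0.49). Thbs1, an inhibitor of vessel growth, was the most abundant of them, at 286, 856 and 382 and 265, 429.8 and 373 CPM (-0.52, SE 0.43). Vegfd, a lymphatic vessel factor, Angptl4 and Fgf2 had fold changes of 0.34, 0.07 and -0.29, with SE 0.73, 0.38 and 0.50. With 1 library left out the sign turned for Vegfa (-0.58 to 0.19), Thbs1 (-0.79 to 0.10), Vegfd (-0.03 to 1.39), Angptl4 (-0.38 to 0.41) and Fgf2 (-0.74 to 0.10).

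The gene of smallest p among those higher with IPI-926 was Fmo2, a flavin monooxygenase (mm10 chr1:162874317-162898726). It stood at 6.07, 11.6 and 8.78 CPM with vehicle (8.81 ± 2.75, SD) and 66.2, 35.2 and 66.95 CPM with IPI-926 (56.1 ± 18.1, SD), from 13, 29 and 4 UMIs against 66, 26 and 67. Every treated library was above every vehicle library, the log2 fold change was 2.66 (SE 0.39), and the adjusted p was 0.539 in edgeR's test and 0.0003991 in DESeq2's. Immune cells held almost none, 0 to 0.203 CPM (unscaled). Cluster 1 showed the same order, with 7.23, 11.5 and 15.8 CPM against 61.3, 82.8 and 78.2 CPM (unscaled). In myofibroblastic cells Fmo2 was rarer, at 0.734, 0.948 and 2.17 CPM and 3.17, 0.959 and 4.94 CPM, and the difference of response was 1.49 (SE 0.57, limma adjusted p = 0.995). Over all alternatives run the fold change of Fmo2 lay between 1.87 and 3.02.

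The next genes in that direction were matrix and surface genes. Ccn5, a matricellular protein, was at 53.3, 49.5 and 32.9 CPM with vehicle and 236, 84.1 and 185 CPM with IPI-926 (log2 fold change 1.87, SE 0.40), but it overlapped between groups in cluster 1, where it stood at 344, 55.8 and 78.99 and 222, 197 and 594 CPM (unscaled). Lrrn4cl, a membrane protein, was at 22.4, 36.3 and 26.3 CPM and 89.3, 55.6 and 89.9 CPM (1.45, SE 0.30), and Mustn1, a small nuclear protein of muscle and skeleton, at 64.9, 63.1 and 39.5 CPM and 141, 103 and 103 CPM (1.02, SE 0.27), and both overlapped in cluster 1 too. Gm14636 had a fold change of 1.42, but immune cells held it at 16.4 to 53.8 CPM (unscaled), above the members (4.39 to 21.98 CPM) in every library except IPI-926 replicate 3.

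The genes of smallest p in the other direction included transcripts typical of stomach lining cells. Gkn2, a gastrokine (mm10 chr6:87373357-87379497), had 70, 56 and 18 UMIs in the vehicle members and 0, 0 and 0 in the IPI-926 members, which is 32.7, 22.4 and 39.5 CPM against 0, and at least 26.5-fold lower over the summed libraries with the floor of 3 UMIs. Its adjusted p was 0.463 in edgeR's test and 7.332e-05 in DESeq2's. Immune cells held Gkn2 at 26.02, 28.04 and 44.9 CPM in the vehicle libraries and 0, 0.209 and 1.07 CPM in the IPI-926 libraries (unscaled), close to the members. Gkn1 was at 155, 42.3 and 105 CPM and 0, 4.07 and 6.995 CPM in the members, and at 100.3, 39.4 and 115 and 0, 5.01 and 5.502 CPM in immune cells. The trefoil gene Tff1 was at 619.9, 338 and 127 CPM and 0, 12.2 and 73.9 CPM in the members, and at 242, 116 and 145 and 0.879, 37.1 and 60.7 CPM in immune cells. The 3 transcripts were lower with IPI-926 in immune cells as in the members, with groups that did not overlap in either, and the part of stray epithelial RNA in the members' values was not tested beyond this. The summed level of the 17 ductal markers in the members was 1925, 798 and 1536 CPM with vehicle and 131, 312 and 873 CPM with IPI-926, and 0 of 16 tested had a positive fold change.

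A pair of transcription factors in that direction was near 0 in immune cells. Barx1 (mm10 chr13:48662998-48666507), a homeobox factor of stomach mesenchyme, was at 180.3, 178 and 132 CPM with vehicle and 2.01, 31.2 and 3.997 CPM with IPI-926, with a log2 fold change of -3.82 (SE 0.84) and groups that did not overlap. It did not pass edgeR's test (adjusted p = 0.99998) and passed DESeq2's (adjusted p = 0.000498), and it was singled out after its values were seen. Barx1 in immune cells was at most 0.881 CPM (unscaled). Myofibroblastic cells held it at 154, 168 and 89.2 CPM and 2.84, 74.2 and 2.55 CPM, so the low levels of IPI-926 replicates 1 and 3 were shared by both cell sets. Isl1, a LIM homeobox factor, was at 29.4, 20.4 and 24.1 CPM and 10.03, 2.71 and 2.998 CPM (log2 fold change -2.17, SE 0.49), with at most 0.122 CPM (unscaled) in immune cells. In cluster 1 the groups of Barx1 did not overlap, and those of Isl1 did. Pianp, a ligand of a paired immune receptor, was at 49.98, 53.9 and 70.2 CPM and 15.05, 18.98 and 26.98 CPM, with immune cells at 9.38, 14.1 and 19.2 and 0.352, 0.157 and 15.4 CPM. Zfp395, a zinc finger gene, was at 34.1, 29.1 and 39.5 CPM and 9.03, 16.3 and 8.99 CPM (-1.58, SE 0.34). In immune cells of the vehicle libraries Zfp395 was at 12.2, 11.7 and 9.25 CPM (unscaled). Mest, an imprinted mesoderm gene, was at 3.27, 19.6 and 48.3 CPM and 2.01, 0 and 10.99 CPM, overlapping between groups.

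**Figure D4:**
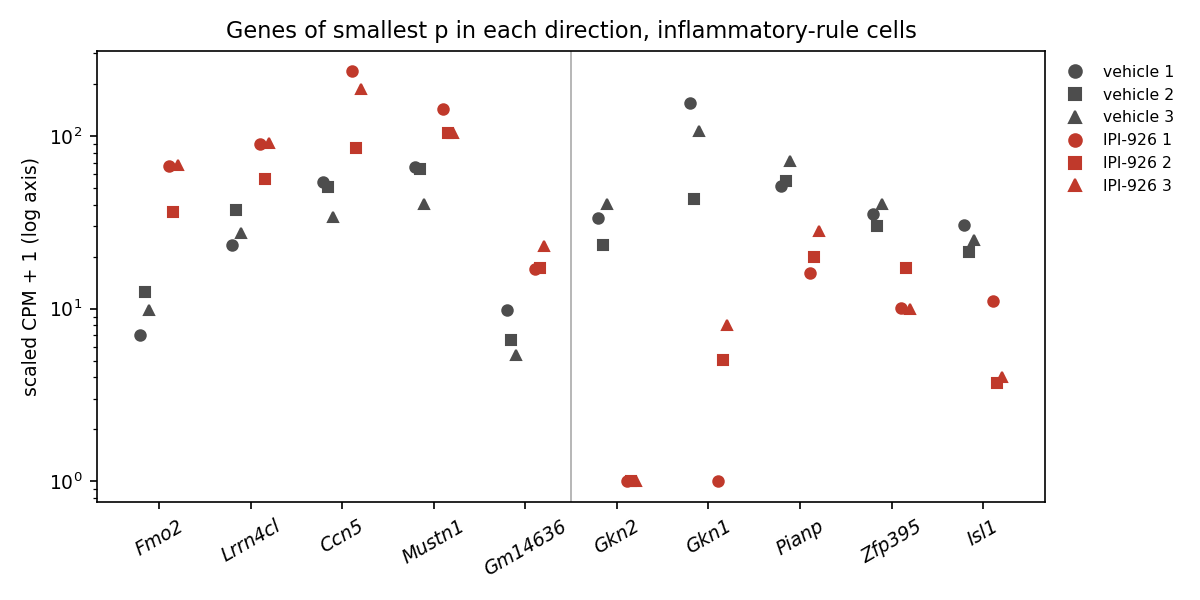
Scaled CPM plus 1 (log axis) in the inflammatory-rule cells of each library for the 5 genes of smallest p that were higher with IPI-926 (left of the line) and the 5 that were lower (right). Fmo2 stands at 6.07 to 11.6 CPM with vehicle and 35.2 to 66.95 CPM with IPI-926, and Gkn2 at 22.4 to 39.5 CPM and 0 CPM.

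The cytokines that give inflammatory fibroblasts their name varied widely between mice of both groups. Saa3, an acute phase protein, stood at 5037, 3741 and 509 CPM with vehicle and 1799, 15138 and 443 CPM with IPI-926, and Cxcl13 at 4695, 194 and 125 CPM and 842, 6326 and 54.96 CPM, so vehicle replicate 1 and IPI-926 replicate 2 were both high. Both were among the leading genes of cluster 3, where Saa3 was at 11072 and Cxcl13 at 5823 CPM, against 1474 and 500 CPM in the other members (unscaled). Cluster 3 made up 65.7%, 4.98% and 48.2% of the members with vehicle and 2.38%, 48.6% and 4.40% with IPI-926. The part of cluster 3 in these levels was not tested. Saa3 also stood at 61.0 to 5485 CPM (unscaled) in immune cells, and IPI-926 replicate 2 was the highest there too. Il6, which defines the inflammatory type in culture, was at 38.8, 157 and 10.97 CPM and 85.3, 104 and 17.99 CPM (log2 fold change -0.08, SE 0.94, -0.50 to 1.32 with 1 library left out). In immune cells Il6 was at 3.06 to 107.8 CPM (unscaled). Cxcl12, a chemokine of the rule, was at 673, 797 and 72.4 CPM and 1117, 264 and 419.7 CPM, and Cxcl1, which draws neutrophils, at 741, 306 and 147 CPM and 417, 987 and 75.9 CPM. Of 19 cytokines tested 13 had a positive fold change, with a median of 0.30. With 1 library left out that median lay between -0.12 without IPI-926 replicate 2 and 0.60 without vehicle replicate 2, and it was -0.05 without vehicle replicate 3, with 9 of 20 positive.

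No complement or cytokine receptor gene was called. Serping1, the C1 inhibitor, was at 1638, 1737 and 1573 CPM with vehicle and 4128, 1993 and 1400.0 CPM with IPI-926 (log2 fold change 0.60, SE 0.38), high in IPI-926 replicate 1 alone and with a fold change of 0.04 without it. C4b, C1s1 and Cfb had fold changes of 0.43, 0.20 and 0.35, each of them negative without IPI-926 replicate 1 (-0.17, -0.03 and -0.08). Of 14 complement genes 9 were positive, and their median of 0.15 lay between -0.14 without IPI-926 replicate 1 and 0.40 without IPI-926 replicate 3. The interleukin 1 receptor Il1r1 was at 222, 159.6 and 65.8 CPM and 193, 388 and 80.9 CPM, and the interleukin 6 signal transducer Il6st at 177, 250.2 and 167 CPM and 367, 266 and 103 CPM. Of 18 receptors tested 14 had a positive fold change and 3 were higher in every IPI-926 library (Il13ra1, Il17ra and Ifngr1), while Igf1r was lower in every one. Over all genes tested 3.13% were higher and 3.73% lower in every IPI-926 library. The median of the receptors, 0.26, lay between 0.09 without IPI-926 replicate 1 and 0.52 without vehicle replicate 2.

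Of 19 genes of the Pi16 and Dpp4 type tested, 15 had a positive fold change and none was called, and the median of 0.44 lay between 0.26 without IPI-926 replicate 1 and 0.66 without vehicle replicate 2. Of these genes Mfap4 and Mfap5 were among the leading genes of cluster 1, whose cells made up 13.8%, 48.0% and 44.6% of the members with vehicle and 83.3%, 43.2% and 8.42% with IPI-926. The summed level of the list was 8095 CPM in cluster 1, 7478 CPM in cluster 2 and 2787 to 4790.5 CPM in the other clusters (unscaled). Ly6a, a surface protein of progenitor cells that interferon also raises, was at 534, 600.3 and 469 CPM with vehicle and 1368, 636 and 2923 CPM with IPI-926 (log2 fold change 1.62, SE 0.51, 0.91 without IPI-926 replicate 3). Cd248, a fibroblast and pericyte glycoprotein, was at 252, 251 and 96.5 CPM and 462, 278 and 449.7 CPM (0.98, SE 0.40). Mfap5, a microfibril protein, was at 519, 1729 and 752 CPM and 2493, 1042 and 720.5 CPM, overlapping between groups. Among members with at least 3 of the 6 markers the list's median was 0.23.

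Of 27 matrix glycoproteins tested 19 had a positive fold change and none was called, and the median of 0.32 lay between 0.13 without IPI-926 replicate 1 and 0.73 without vehicle replicate 2. Efemp1, a fibulin, was at 138, 128 and 112 CPM and 203, 164 and 256 CPM (0.72, SE 0.25), with no overlap between the groups, although in cluster 1 they overlapped. Mmp2, a gelatinase, was at 279, 576 and 529 CPM and 1224, 535 and 950.3 CPM (0.97, SE 0.39), and vehicle replicate 2 lay within the treated range. Sparc, the most abundant of the list, was at 6171, 10101 and 3429 CPM and 18751, 9345 and 5513 CPM. Lum, a proteoglycan that served to pick the fibroblasts and is given as a description, was at 282, 574 and 544 CPM and 1422, 1078 and 726 CPM. Of 12 collagens outside the rule 5 were positive, with a median of -0.05 that lay between -0.32 without IPI-926 replicate 1 and 0.34 without vehicle replicate 2. Of 15 TGF-beta targets 5 were positive, with a median of -0.19 that lay between -0.28 without vehicle replicate 1 and 0.04 without IPI-926 replicate 3. Inhba, an activin subunit among those targets, was at 16.3, 53.1 and 121 CPM and 8.03, 12.2 and 16.99 CPM (-2.25, SE 0.75), and vehicle replicate 1 lay within the treated range.

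Interferon and antigen presentation genes were mostly highest in IPI-926 replicate 3. Of 17 interferon response genes tested 16 had a positive fold change, with a median of 1.37, but without that library 9 of 18 did and the median was -0.07. Iigp1, an interferon-induced GTPase, was at 58.4, 33.5 and 15.4 CPM with vehicle and 40.1, 18.98 and 753 CPM with IPI-926. Isg15, a ubiquitin-like interferon product, was at 59.3, 38.3 and 59.2 CPM and 112, 73.2 and 286 CPM (log2 fold change 1.61, SE 0.51, and 0.86 without that library), and its groups did not overlap. The 12 class I genes of the major histocompatibility complex all had a positive fold change, with a median of 1.05, while 5 of 12 did without IPI-926 replicate 3, with a median of -0.10. B2m, the shared light chain of class I, was at 654, 457 and 535 CPM and 777, 507 and 2792 CPM. The class II median was 0.46, and -2.03 without that library, and it lay at 1.85 without vehicle replicate 3.

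Markers of other cells stood high in the same library. The summed level of the 12 macrophage markers was 270.5, 427 and 344 CPM in the vehicle members and 133, 563 and 3404 CPM in the IPI-926 members, and that of the 10 endothelial markers 83.6, 144 and 467 CPM and 113, 67.8 and 1069 CPM. Their part in the interferon and class II values was not tested. Among members with at least 3 of the 6 markers, of which IPI-926 replicate 3 kept 66 cells and vehicle replicate 3, with 18, was left out, the interferon median was 1.68 and the macrophage median 1.20, with 8 of 9 macrophage markers positive. The endothelial median in that setting was -0.26, with 2 of 5 markers positive, against 1.34 and 6 of 7 with all members. Acinar, lymphocyte and Schwann markers were mostly too rare to test (3 of 12, 1 of 10 and 1 of 6 tested). The plasma cell gene Igkc was at 9192, 185 and 2.19 CPM with vehicle and 120.4, 2.71 and 574 CPM with IPI-926, and Hbb-bs, a haemoglobin gene, at 1041, 0 and 0 CPM and 3.01, 0 and 22.98 CPM.

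**Figure D5:**
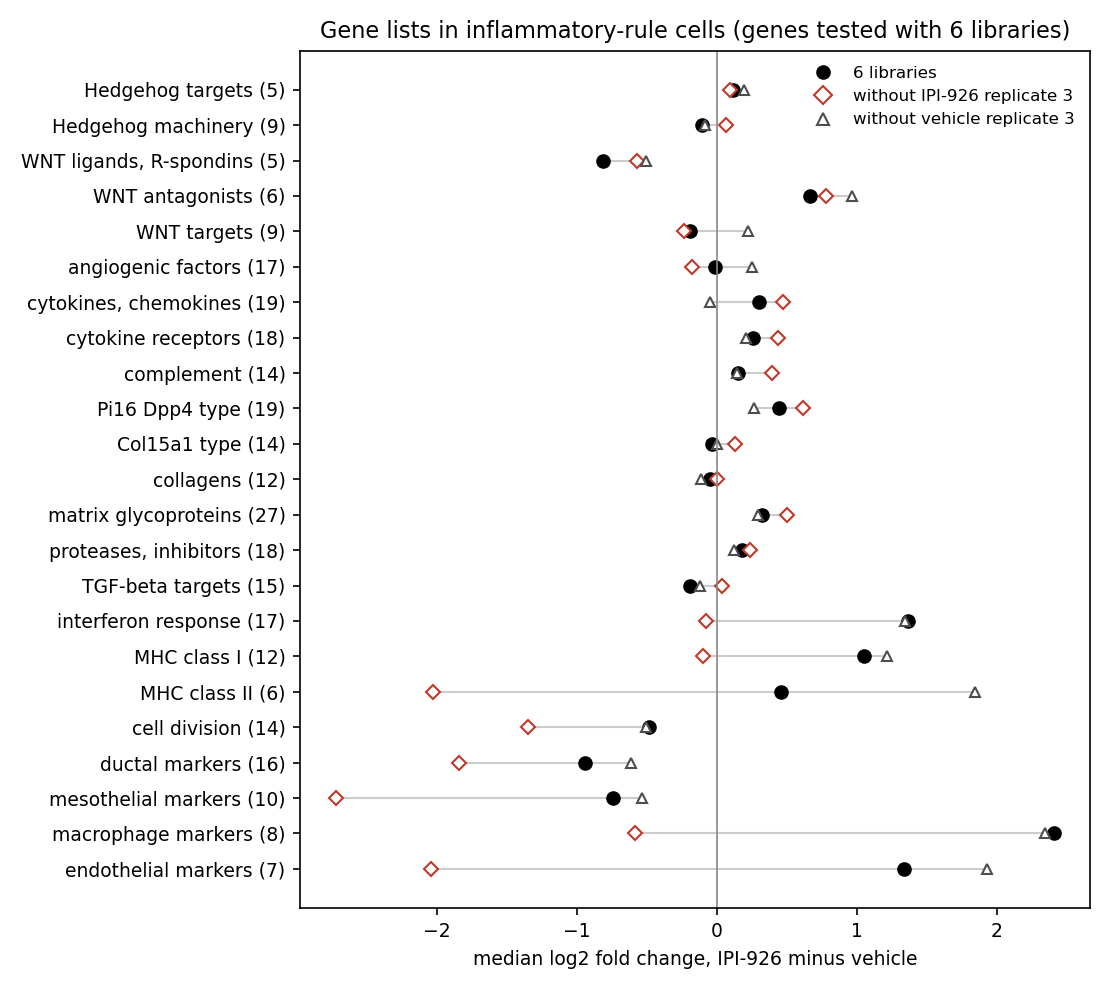
Median log2 fold change (IPI-926 minus vehicle) of 23 gene lists in the inflammatory-rule cells, with the number of genes tested in brackets, for all 6 libraries (black circles), without IPI-926 replicate 3 (open diamonds) and without vehicle replicate 3 (open triangles). The interferon list stands at 1.37 with all libraries and -0.07 without IPI-926 replicate 3, and the macrophage list at 2.41 and -0.59.

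Of 14 cell division genes tested 12 had a negative fold change, with a median of -0.48, and none was called. The median was -1.35 without IPI-926 replicate 3, with 1 of 16 positive, -1.16 among members with at least 3 of the 6 markers, and -0.17 without IPI-926 replicate 1. Top2a, a topoisomerase of dividing cells, was at 56.1, 82.6 and 50.5 CPM with vehicle and 7.02, 25.8 and 70.95 CPM with IPI-926 (log2 fold change -0.88, SE 0.69), and IPI-926 replicate 3 lay within the vehicle range. Without it the fold change of Top2a was -2.01. Cluster 6, which these genes lead, held 7, 20 and 1 cells of the vehicle libraries and 1 cell of each IPI-926 library. As shares of the members this was 3.33%, 7.12% and 1.79% with vehicle and 1.19%, 2.70% and 0.366% with IPI-926, overlapping between groups. Glycolysis genes had a median of 0.15 that lay between -0.09 without IPI-926 replicate 3 and 0.32 without vehicle replicate 2, and hypoxia genes one of 0.15 that lay between -0.08 without vehicle replicate 1 and 0.57 without vehicle replicate 2. Gapdh was at 719.8, 725 and 641 CPM and 660.1, 752 and 1123 CPM. Immediate early genes, which dissociation can raise, had a median of -0.23 that lay between -0.42 without IPI-926 replicate 2 and 0.11 without vehicle replicate 1, and at 0.08 without IPI-926 replicate 3, with Fos at 2024, 1028 and 1667 CPM and 1222, 1864 and 411 CPM. Growth factor genes of the IGF, PDGF and FGF families had a median of 0.18 that lay between -0.51 without IPI-926 replicate 1 and 0.39 without IPI-926 replicate 2, and the most abundant, Igfbp4, was at 2377, 4242 and 2189.5 CPM and 5787, 2341 and 1999.6 CPM.

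With 3 mice a group the exact permutation test cannot go below p = 0.1, so no difference in the share of inflammatory-rule cells could pass a threshold of 0.05. These cells made up 24.4%, 27.2% and 10.96% of the Crabp1-low fibroblasts with vehicle (20.9 ± 8.70, SD) and 23.2%, 16.3% and 16.6% with IPI-926 (18.7 ± 3.91, SD), a difference of -2.19 percentage points (two-sided exact permutation p = 0.8). Of all kept cells they made up 2.97%, 3.01% and 0.757% with vehicle (2.24 ± 1.29, SD) and 1.04%, 0.560% and 1.66% with IPI-926 (1.09 ± 0.553, SD), a difference of -1.16 points (exact permutation p = 0.3). Without vehicle replicate 3 that difference was -1.90 points (exact permutation p = 0.1, which is the lowest value possible with 2 against 3). As a description, cluster 1 cells were 3.38%, 13.1% and 4.89% of the Crabp1-low fibroblasts with vehicle and 19.3%, 7.05% and 1.39% with IPI-926. The depth of a cell, whose medians are given above, sets how many of the rule's genes are seen, and its part in these shares was not tested.

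No gene was called for a response that differed between inflammatory-rule and myofibroblastic cells. The log2 difference between the cell sets was taken within each library and compared between the groups with limma for 8460 genes, of which 0 were called (0%) and 292 (3.45%) had an unadjusted p under 0.05. edgeR with the library as a block called 1 gene, Ighg1, an antibody heavy chain. In the members of vehicle replicate 1 Ighg1 had 1288 UMIs, all from 2 of 210 cells. It had 0 UMIs in the members of vehicle replicates 2 and 3, so the vehicle level rests on 2 cells of 1 mouse. Among myofibroblastic cells alone 12456 genes were tested with edgeR and 0 called (0%). The log2 fold change of Gli1 there was -3.21 (SE 0.60) and of Ptch1 -1.35 (SE 0.32), against -0.83 (SE 0.53) for Ptch1 in the inflammatory-rule cells. The difference of response was 0.52 for Ptch1 (SE 0.46, limma adjusted p = 0.995) and 1.28 for Mmp2 (SE 0.37, limma adjusted p = 0.995), in myofibroblastic cells at a fold change of -0.31. Gli1 was too rare in the members for that test.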

How the data were processed

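The authors deposited 1 matrix per mouse of UMI counts that were not normalized. The matrices come from cellranger 6.1.2, per the file headers. The submitters' processing notes give mm10 and an older Cell Ranger, 2.1.1. Positions are from GENCODE vM21, which holds 32158 of the 32285 gene identifiers. The members and the 42 gene lists were chosen with earlier results of these data known.

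Counts were summed over the members of each library with at least 20 of them (all 6). They were tested with edgeR 4.0.16 (quasi-likelihood test, robust, with trimmed mean scaling and a low-count filter by group) in R 4.3.3, with Benjamini-Hochberg adjustment over all genes tested and a threshold of 0.05. An SE was taken as the fold change divided by the square root of F. The difference of response was tested with limma 3.58.1 (trend, robust, prior count 2) on the log2 CPM difference within a library. Shares were compared by an exact permutation over 20 assignments. DESeq2 1.42.0 and limma-voom were alternatives. Doublets scored in each library were kept and removed in an alternative. Members were clustered with scanpy 1.11.5 at resolution 0.3 without batch integration. Floors and lower bounds cover counting error only. The fits were tested on simulated data. With a common dispersion of 0.125 edgeR's test called 8%, 82%, 100% and 100% of abundant genes changed by 1, 2, 3 and 4 log2 units, with 6 false calls. In the real data Gkn1 and Barx1, at fold changes of -4.74 and -3.82, were not called, so these shares do not carry over to every gene.

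Named genes were the rule's genes, the Hedgehog targets (1 is not reported here), up to 4 members of highest level in each other list, the 5 genes of smallest p in each direction with a mean of at least 10 CPM, the 10 highest and 10 lowest ratios to myofibroblastic cells (mean of at least 50 CPM), and Gli1, Ptch1, Hhip, Wif1, Bmp4, Foxf1, Axin2, Lef1, Vegfa, Il6, Cxcl12, Wnt2, Wnt5a, Rspo3 and Mest. Genes past these rules (such as Efemp1, Cd248 and the receptors named for their order) were chosen after their values were seen.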

Additional observations from a re-analysis of the deposited data

Results flagged for a closer look

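In data outside the comparisons, 2647 cells of IPI-926 replicate 3 passed the fibroblast gate with 3 or more UMIs of Crabp1, far above the level in the control samples, where 1, 0 and 2 cells did. The groups of 3 mice are too small for a test of single outlying libraries.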

How the results depend on the processing

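Without the filter on low counts 2 genes were called between IPI-926 and vehicle (Fmo2 and Gkn2), with DESeq2 4 (Fmo2, Gkn1, Gkn2 and Barx1), and 0 under every other alternative run. For the difference of response, edgeR with the library as a block called 1 gene (Ighg1) and the other alternatives 0. The difference in the share among Crabp1-low fibroblasts lay between -7.15 and 0.984 percentage points with 1 library left out, changing sign without vehicle replicate 2, and it was 0.104 with a margin of 2 genes, 1.85 with the 6 marker genes and 0.585 with at least 3 of the 6 markers. The share among kept cells lay between -1.90 and -0.775 points with 1 library left out. Of 2439 pairs of a named gene and an alternative, 214 had the other sign, none of them called. In the settings with a margin of 2 genes, the 6 marker genes or at least 3 of them, vehicle replicate 3 fell below 20 cells and was left out. The settings with at least 3 of the 6 markers, at least 3000 UMIs, and without both replicates 3 were chosen after seeing the data. No paired analysis was possible because the labels give no pairing and the replicate numbers are not shared marks of a litter, batch or day.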
